A study of Mus musculus with 6 samples.

Results

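The hnRNP and SR splicing proteins were examined as a group of genes in the mouse cortex at E13.5. Members were the genes whose symbol begins with Hnrnp or Hnrp, the numbered Srsf genes, Tra2a and Tra2b, Ptbp1 and Ptbp3, the Rbfox genes, and Nova1 and Nova2. The pattern found 41 genes among the 17348 listed. The pattern reads names only, and it was chosen with earlier results of these data known. Of these, 40 had enough counts to be tested among 13340 tested genes. The exception was Hnrnpa1l2-ps2, which had 0 counts in 5 libraries and 1 count in cKO replicate 2.

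The study compared embryos lacking Ybx1, an RNA-binding protein of the cold shock domain family, with WT embryos, to ask which transcripts depend on it. The cKO embryos carried the Nestin-Cre transgene and floxed Ybx1 alleles (Nestin-Cre, Ybx1 fl/fl), so that deletion takes place in neural progenitors and their progeny, and cells of other lineages in the dissected tissue can keep the gene. The other group is named WT in the labels and consisted of littermates, and the study elsewhere uses Ybx1 fl/fl embryos without Cre as controls. Whole cortex was sequenced from 3 embryonic samples per genotype, with no treatment in either group.

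A newly made transcript is covered by proteins that decide which of its exons are kept. SR proteins carry an RNA recognition motif and a tail rich in arginine and serine, bind exonic enhancers and recruit the spliceosome, whereas many hnRNPs bind silencers and oppose exon inclusion. In the developing cortex a further layer is laid over this by tissue-restricted regulators: Ptbp1 holds neuronal exons back in progenitors, and the NOVA and RBFOX proteins promote neuronal splicing programmes after cell cycle exit. Many SR and hnRNP genes regulate their own transcript through poison exons, which gene-level counts do not resolve.

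Ybx1 was read first as the check of the genotype. Its level in CPM (counts divided by the TMM-scaled library size) was 1021, 528 and 1220 in WT replicates 1 to 3 and 83.1, 117 and 147 in cKO replicates 1 to 3. The genotypes did not overlap, cKO being lower, and the library labelled WT replicate 2 held the lowest WT value. The log2 fold change was -3.0 (SE 0.33, 95% interval -3.77 to -2.23), with an adjusted p of 0.128 (quasi-likelihood test of edgeR, adjusted after Benjamini and Hochberg across the tested genes). That adjusted p was 0.0206 without WT replicate 2. Library totals lay between 15907491 and 16282929 counts, so that 0 counts allow up to 0.184 to 0.189 CPM (counting error only). The summed level of 8 epidermis and meninges markers was 725 CPM in cKO replicate 3 and 6.99 to 15 CPM in the other 5 libraries, although no marker of the list was at 0 throughout. Markers of radial glia and of neurons were present in every library, as the label of cortex requires.

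Y-box proteins take their name from a promoter element that contains an inverted CCAAT box, and the gene starts of the members were read for these letters. The paper found Ybx1 mainly in the cytoplasm of progenitors and proposes that it stabilises mRNAs carrying methylated cytosine. A promoter match says nothing about that role. RefSeq (GRCm38.p6) placed the 41 genes on 17 chromosomes, and 37 had at least 1 promoter window, 50 windows in all. The letters CTGATTGG, read on both strands over the 250 bases upstream of a start, were found in 4 windows, those of Hnrnph2, Hnrnpul1, Srsf2 and Srsf3. This is 8.0% of the member windows, against 3.83% of all 32851 windows and 5.05% of those of listed genes. The shorter CCAAT, which the longer motif contains on its opposite strand, was found in 48.0% of member windows. It was found in 33.8% of all windows and 35.0% of those of listed genes. Median GC was 62.6% in member windows and 58.4% in windows of listed genes, and its part in these shares was not tested. The promoter stretches of 2 genes whose listed start is the outermost of the gene are shown, with the longer motif in capitals, so that the position of the element can be seen.
Hnrnph2: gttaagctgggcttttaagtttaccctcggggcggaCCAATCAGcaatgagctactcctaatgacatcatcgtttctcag
Srsf3: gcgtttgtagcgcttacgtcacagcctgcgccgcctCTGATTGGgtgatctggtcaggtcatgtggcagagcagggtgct
The Hnrnph2 stretch is chrX:134600964-134601043 on the plus strand, with the motif on the opposite strand, 171 bases upstream of the start. The Srsf3 stretch is chr17:29032563-29032642 on the plus strand, with the motif on the strand of the gene, 53 bases upstream. The motif was chosen with results of these data known, and a match describes letters only.
The log2 fold changes of these genes were small. Hnrnph2, an hnRNP that binds runs of G, had 175, 209 and 199 CPM in WT and 188, 211 and 195 CPM in cKO (log2 fold change 0.03, SE 0.09). Srsf3, the shortest SR protein, had 406, 523 and 456 CPM in WT and 439, 486 and 449 CPM in cKO (-0.01, SE 0.10). The genotypes overlapped for both. The median log2 fold change was 0.01 over the 4 genes with the longer motif and -0.0027 over tested members with a promoter window but without it. For CCAAT the medians were -0.0094 with and 0.018 without.

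Most members were abundant. Mean TPM in WT, which accounts for transcript length and allows levels of different genes to be compared, ran from 6.21 ± 0.885 (SD, n = 3) for Srsf12 to 2601 ± 102 for Hnrnpa1, and 34 members exceeded a mean of 100 CPM in WT. After Hnrnpa1, the next levels were 1971 ± 49.4 TPM for Hnrnpa2b1, 1187 ± 34.5 for Hnrnph1, 1066 ± 66.8 for Hnrnpab and 1064 ± 42.2 for Hnrnpk. The last pair lay closer together than their spread. Among SR genes the highest level was that of Srsf2 at 537 ± 10.8 TPM, followed by Srsf3 at 419 ± 35.7 and Srsf5 at 411 ± 39.5, which did not differ beyond their spread. Ptbp1 stood at 320 ± 4.14 TPM and its paralog Ptbp3 at 17.0 ± 1.39. The neuronal regulators were lower than most of the group, at 137 ± 14.7 TPM for Rbfox2, 57.8 ± 13.3 for Rbfox3, 43.7 ± 8.31 for Nova2, 28.3 ± 4.66 for Rbfox1 and 25.2 ± 1.60 for Nova1. In this order Rbfox1 and Nova1 lay within their spread of each other, and Rbfox3 was above Nova2 by about its own SD.

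**Figure D1:**
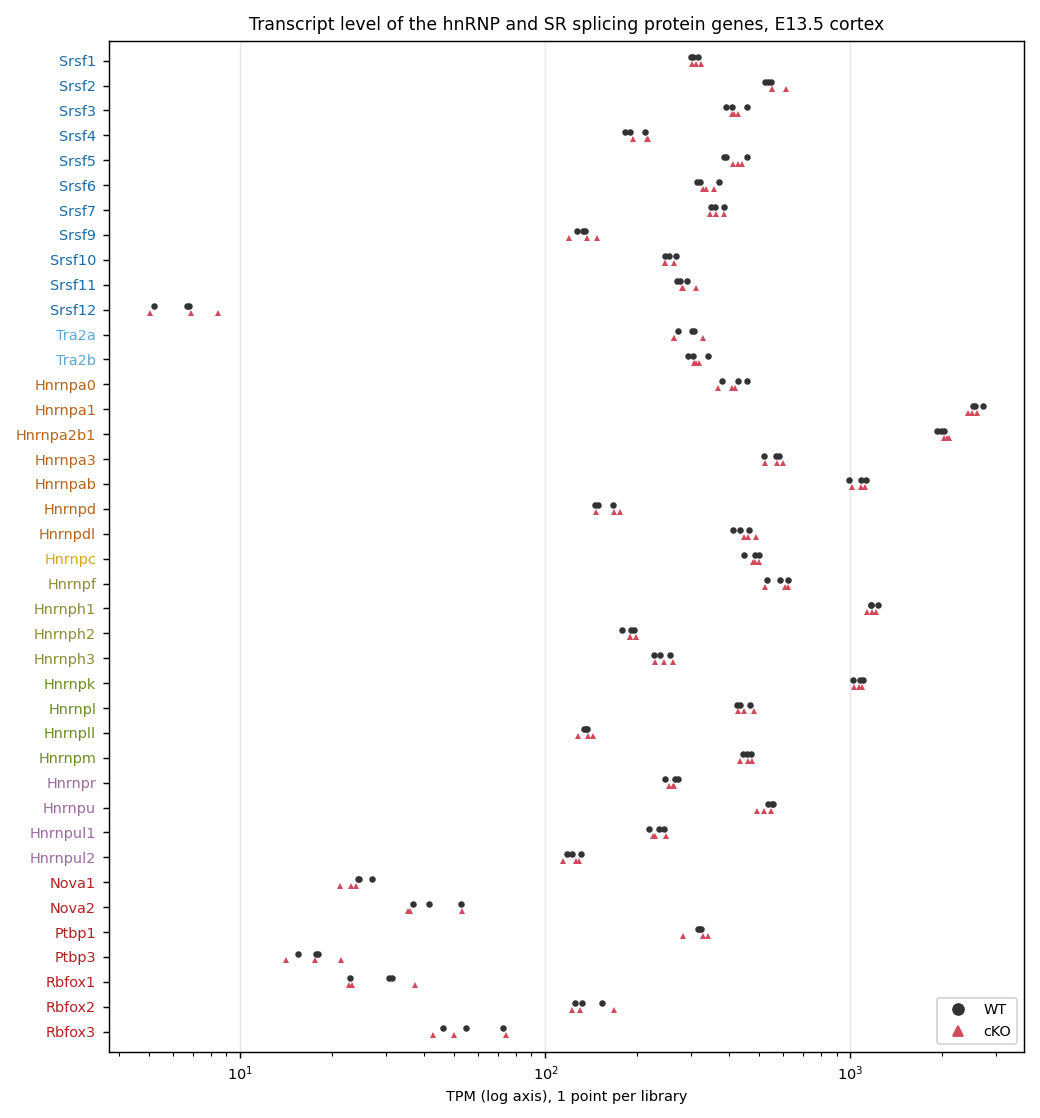
TPM on a log axis for each of the 40 tested members, with 1 point per library (dark circles WT, red triangles cKO) and gene names coloured by class. The points of both genotypes lie together for nearly every gene, from Srsf12 at 6.21 TPM (WT mean) to Hnrnpa1 at 2601 TPM.

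The summed level of the group differed between genotypes by less than between libraries of a genotype. Members summed to 19372, 21105 and 20531 CPM in WT and to 19668, 21518 and 19829 CPM in cKO, which gives 20336 ± 883 (SD, n = 3) and 20339 ± 1025. The highest library was cKO replicate 2 and the lowest WT replicate 1, so the spread between libraries was larger than the genotype difference. Their share of a library's counts ran from 1.93% to 2.13%.

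No member passed an adjusted p of 0.05 in edgeR's quasi-likelihood test, and neither did any other tested gene, Ybx1 included (0% of 13340). The paper reported genes changed in both directions at this stage, by a test that its methods do not name. At an unadjusted p under 0.05, 0 of 40 members were higher and 0 were lower in cKO, where 1.75% and 1.81% of all tested genes were. DESeq2 and limma-voom gave 0 members as well, both at that unadjusted level and after adjustment, as did edgeR without WT replicate 2 and cKO replicate 3. Over all genes in those fits, 1.11%, 1.52% and 0.787% were higher and 1.44%, 1.82% and 1.06% lower at that unadjusted level. After adjustment 4, 0 and 2 of all genes passed in them. The lowest unadjusted p of a member was 0.162, that of Nova1. Of the 40 log2 fold changes, 20 were above 0 and 20 below, with a median of 0.0040 beside 0.0019 over all tested genes. Fitted fold changes ran from 0.908 for Nova1 to 1.08 for Srsf4.

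A p that misses the threshold leaves the size of a difference unstated, so intervals were read as well. The 95% interval of the fold change lay within 1.5-fold either way for 40 of 40 members, beside 78.2% of all tested genes. It lay within 1.2-fold for 25 members, beside 26.4% of all tested genes. The lowest bound was 0.694-fold (Rbfox3) and the highest 1.46-fold (Srsf12). Members had a median SE of 0.0884 on the log2 scale against 0.114 for all tested genes, and many of the latter were less abundant. Without WT replicate 2 the count within 1.5-fold was 37, beside 70.7% of all genes in that fit, with Nova2, Rbfox1 and Rbfox3 reaching past. Without both that library and cKO replicate 3 it was 39, beside 69.6% of all genes in that fit, with Srsf12 reaching past.

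**Figure D2:**
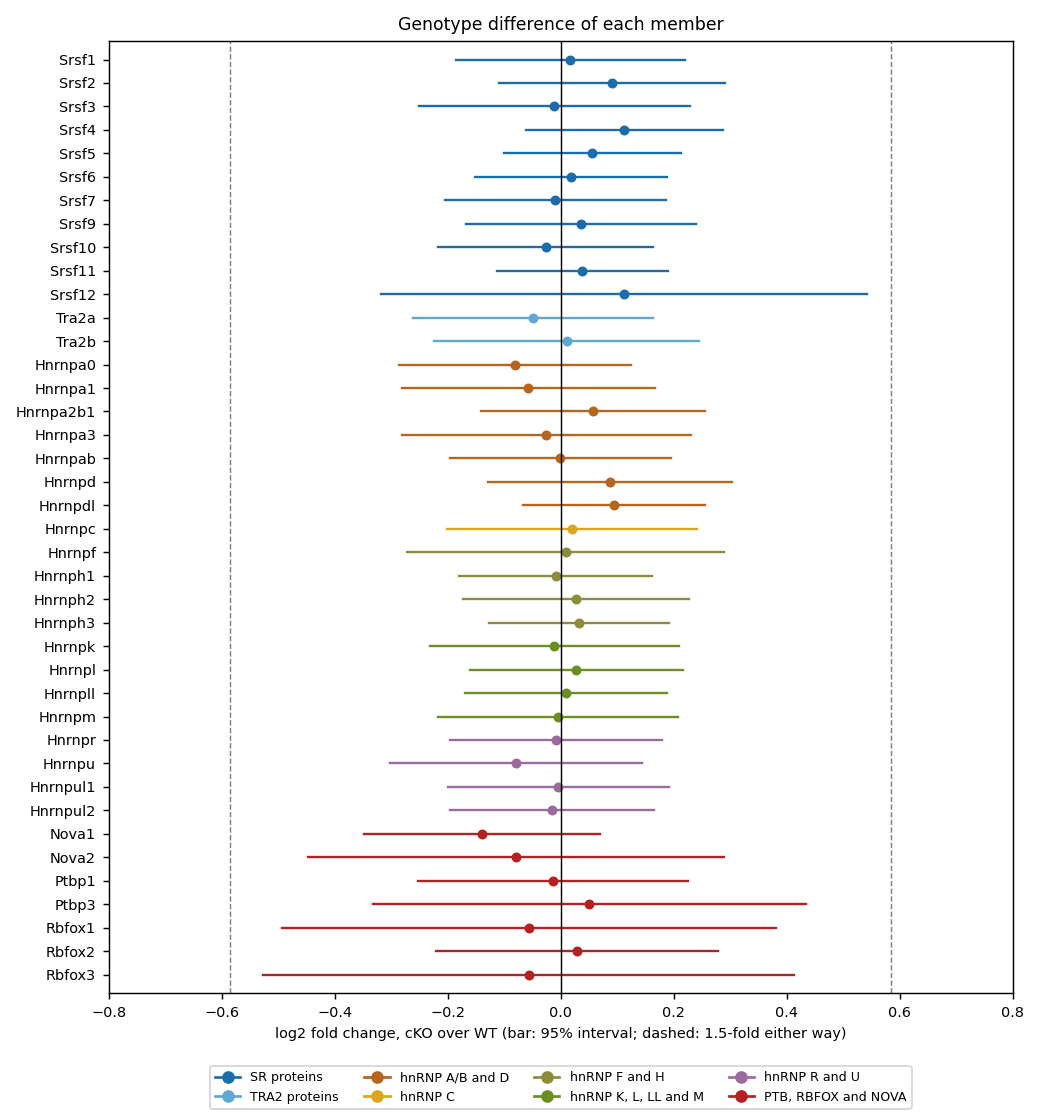
Log2 fold change of cKO over WT for each tested member, coloured by class, with bars for the 95% interval and dashed lines at 1.5-fold either way. All 40 bars cross 0 and end inside the dashed lines, and Srsf12, Rbfox1 and Rbfox3 have the widest.

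SR proteins were measured by 11 genes, of which 8 had log2 fold changes above 0 and 3 below, with a median of 0.036; 6774 of the 13340 tested genes were above 0. Their sum was 3827 ± 153 CPM in WT and 3899 ± 162 CPM in cKO. Srsf4, a long SR protein that binds exonic enhancers, had 203, 188 and 192 CPM in WT and 209, 225 and 195 CPM in cKO. Its highest values were in cKO replicates 1 and 2, while cKO replicate 3 lay among the WT libraries (log2 fold change 0.11, SE 0.08, interval -0.06 to 0.29). Srsf2, which also acts in transcriptional pause release, had 438, 465 and 464 CPM in WT and 453, 536 and 465 CPM in cKO. Only cKO replicate 2 stood clear of the others (0.09, SE 0.09), and without it the log2 fold change was 0.01. Srsf5, a paralog of Srsf4 and Srsf6, had 264, 246 and 238 CPM in WT against 259, 259 and 260 CPM in cKO, where WT replicate 1 was the highest of the 6 (0.06, SE 0.07).

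Srsf11 had 426, 434 and 429 CPM in WT and 450, 441 and 432 CPM in cKO, a narrow range in which only WT replicate 2 and cKO replicate 3 were out of order between the genotypes (0.04, SE 0.07). Srsf1, the classical splicing factor of the family, had 695, 802 and 757 CPM in WT and 732, 815 and 733 CPM in cKO, with full overlap (0.02, SE 0.09, interval -0.19 to 0.22). Srsf12 was the least abundant tested member, at 8.48, 7.25 and 9.19 CPM in WT and 10.8, 6.84 and 9.29 CPM in cKO. Both its extremes were cKO libraries, and its interval (-0.32 to 0.54) was among the widest.

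The TRA2 proteins are SR-like and promote inclusion of exons with purine-rich enhancers. Tra2a had 244, 256 and 228 CPM in WT and 262, 225 and 216 CPM in cKO (-0.05, SE 0.09). Tra2b had 333, 423 and 370 CPM in WT and 356, 401 and 377 CPM in cKO (0.01, SE 0.10). In both genes the genotypes overlapped, and their sum was 618 ± 53.6 CPM in WT and 613 ± 17.3 CPM in cKO.

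The hnRNP A/B and D class, 7 genes with paired RNA recognition motifs, gave 7538 ± 335 CPM in WT and 7556 ± 443 CPM in cKO, with 3 log2 fold changes above 0 and 4 below. Hnrnpdl was the only member whose cKO libraries all lay above the WT libraries, with 566, 556 and 567 CPM in WT and 611, 616 and 576 CPM in cKO. That is 1 of 40 members (4.21% of all tested genes), and 0 members had every cKO library below every WT library (4.83% of all). The smallest gap was between 567 CPM in WT replicate 3 and 576 CPM in cKO replicate 3. The log2 fold change was 0.09 (SE 0.07, interval -0.07 to 0.26, unadjusted p = 0.217 in edgeR's test, adjusted p = 0.99995), and on the TPM scale the genotypes overlapped. Hnrnpdl, an AU-rich element binding protein, lies at chr5:100033577-100039936 (GRCm38.p6), 54.4 kb from its paralog Hnrnpd. Its span overlaps that of Enoph1, it had counts that were not whole, and the strand setting of the counting is not given in the sources used here. The spans of Srsf2, Hnrnpd, Hnrnpu and Ptbp1 likewise overlap another listed gene, so their counts are uncertain in the same way.

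Hnrnpd, which binds AU-rich elements and speeds mRNA decay, had 498, 476 and 476 CPM in WT and 514, 569 and 457 CPM in cKO. Its cKO libraries held both the highest and the lowest value (0.09, SE 0.09), and without cKO replicate 2 the log2 fold change was 0.0046. Hnrnpa2b1, which also acts in RNA transport, had 1697, 1949 and 1837 CPM in WT and 1876, 1958 and 1869 CPM in cKO (0.06, SE 0.09). WT replicate 1 was its low library and WT replicate 2 lay among the cKO values. Hnrnpa1, a general splicing silencer, had 1772, 2080 and 1931 CPM in WT and 1730, 1988 and 1837 CPM in cKO (-0.06, SE 0.10). Hnrnpa0, which binds AU-rich elements, had 498, 449 and 495 CPM in WT and 450, 495 and 419 CPM in cKO (-0.08, SE 0.09). All 3 genes overlapped between genotypes.

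In the remaining hnRNP classes the difference between genotypes in summed level was smaller than the spread between libraries of a genotype. The F and H class, which binds G runs, gave 1865 ± 101 CPM in WT and 1868 ± 90.8 CPM in cKO over 4 genes. Hnrnpc, which binds uridine tracts, gave 506, 620 and 584 CPM in WT and 553, 614 and 566 CPM in cKO. Hnrnpk, Hnrnpl, Hnrnpll and Hnrnpm gave 2328 ± 147 CPM in WT and 2325 ± 163 CPM in cKO. The R and U class gave 2344 ± 102 and 2267 ± 178 CPM, and 4 of its 4 log2 fold changes were below 0, with a median of -0.012. In that class Hnrnpu, a nuclear scaffold protein that binds chromatin and RNA, had 1214, 1368 and 1334 CPM in WT and 1124, 1348 and 1233 CPM in cKO, with cKO replicates 2 and 3 among the WT libraries (-0.08, SE 0.10).

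**Figure D3:**
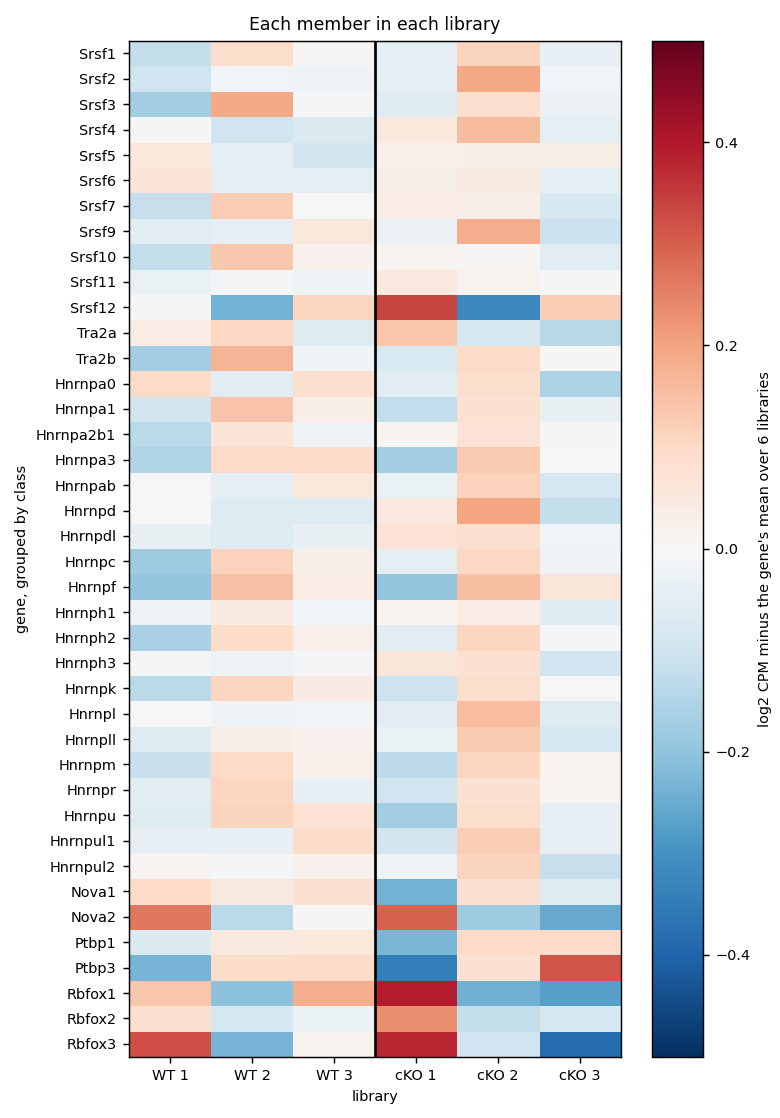
Heat map of log2 CPM minus the gene's mean over the 6 libraries, for the 40 tested members (rows, by class) in WT and cKO replicates 1 to 3 (columns). Most SR and hnRNP rows are higher in cKO replicate 2 and lower in WT replicate 1. The Rbfox3, Rbfox1, Srsf12, Ptbp3 and Nova2 rows have the widest range between libraries.

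Differences between libraries were larger than those between genotypes for most members. In 35 of 40 the genotype difference in mean CPM was below the pooled SD. The share over all tested genes was not computed for this count or the next. Neither count is therefore read as particular to the members. In 4 members the highest library exceeded the lowest by more than 1.5-fold, and these were Rbfox3, Rbfox1, Srsf12 and Ptbp3. Of these only Srsf12 belongs to the SR class, and its counts were low.

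Several of the neural switch genes varied widely between libraries. Ptbp1, the repressor of neuronal exons in progenitors, had 401, 434 and 436 CPM in WT and 359, 450 and 450 CPM in cKO (log2 fold change -0.01, SE 0.10, interval -0.25 to 0.22). Ptbp3 had 45.3, 56.8 and 56.7 CPM in WT and 42.1, 56.2 and 66.2 CPM in cKO (0.05, SE 0.17). For both genes the lowest library of each genotype was replicate 1.

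The RBFOX genes, which bind GCAUG and favour neuronal exons, ran otherwise across the libraries. Rbfox2 had 425, 380 and 392 CPM in WT and 472, 370 and 380 CPM in cKO (0.03, SE 0.11). Rbfox3, which encodes the neuronal antigen NeuN, had 109, 74.4 and 88.3 CPM in WT and 113, 81.4 and 66.8 CPM in cKO (-0.06, SE 0.20). For these genes replicate 1 was the highest library of each genotype. Rbfox1 had 60.7, 47.8 and 62.6 CPM in WT and 72.4, 46.7 and 45.6 CPM in cKO (-0.06, SE 0.19). Without cKO replicate 1 its log2 fold change was -0.30, and it was then the only member at an unadjusted p under 0.05 (adjusted p = 0.626 in edgeR's test), 1 of 40 where 3.57% of all genes in that fit were lower at that level, whereas without cKO replicate 3 it was 0.06.

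The NOVA proteins bind YCAY clusters in neuronal transcripts. Nova2, the form that predominates in cortex, had 194, 147 and 162 CPM in WT and 198, 143 and 135 CPM in cKO (-0.08, SE 0.16), again with replicate 1 the highest of each genotype. Nova1 had 56.6, 54.4 and 55.6 CPM in WT and 44.8, 55.9 and 50.6 CPM in cKO, where cKO replicate 2 lay among the WT libraries. It had the lowest fold change of the group (-0.14, SE 0.09, interval -0.35 to 0.07, adjusted p = 0.99995 in edgeR's test). Without cKO replicate 2 it was -0.22, and Nova1 was then the only member at an unadjusted p under 0.05 (adjusted p = 0.999), 1 of 40 where 1.81% of all genes in that fit were lower, while without cKO replicate 1 it was -0.05. On the TPM scale its WT libraries held 27.1, 24.4 and 24.2 and its cKO libraries 21.2, 23.9 and 23.0, which do not overlap. On that scale 1 of 40 members had every cKO library below every WT library, beside 3.95% of all tested genes.

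Marker sums differed between the same libraries. The sum of 8 radial glia markers was 1808, 2447 and 2485 CPM in WT and 1771, 2627 and 2366 CPM in cKO. The sum of 8 neuron markers was 5353, 4678 and 5092 CPM in WT and 5530, 4520 and 4483 CPM in cKO. The lowest radial glia sum and the highest neuron sum of each genotype were thus those of replicate 1, beside low Ptbp1 and Ptbp3 and high Rbfox2, Rbfox3 and Nova2. Rbfox1 and Nova1 did not follow in both genotypes. Rbfox1 was highest in WT replicate 3 (62.6 CPM, against 60.7 CPM in WT replicate 1). Nova1 was highest in WT replicate 1 but lowest in cKO replicate 1 (44.8 CPM). Intermediate progenitor markers (4 genes) summed to 996 to 1160 CPM in WT and 892 to 1072 CPM in cKO, interneuron markers (8 genes) to 70.5 to 123 and 145 to 153 CPM, and erythroid markers (6 genes) to 378 to 555 and 429 to 651 CPM. The part of cell composition in these values was not tested. In whole tissue, fewer cells of a type and less RNA per cell cannot be told apart.

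**Figure D4:**
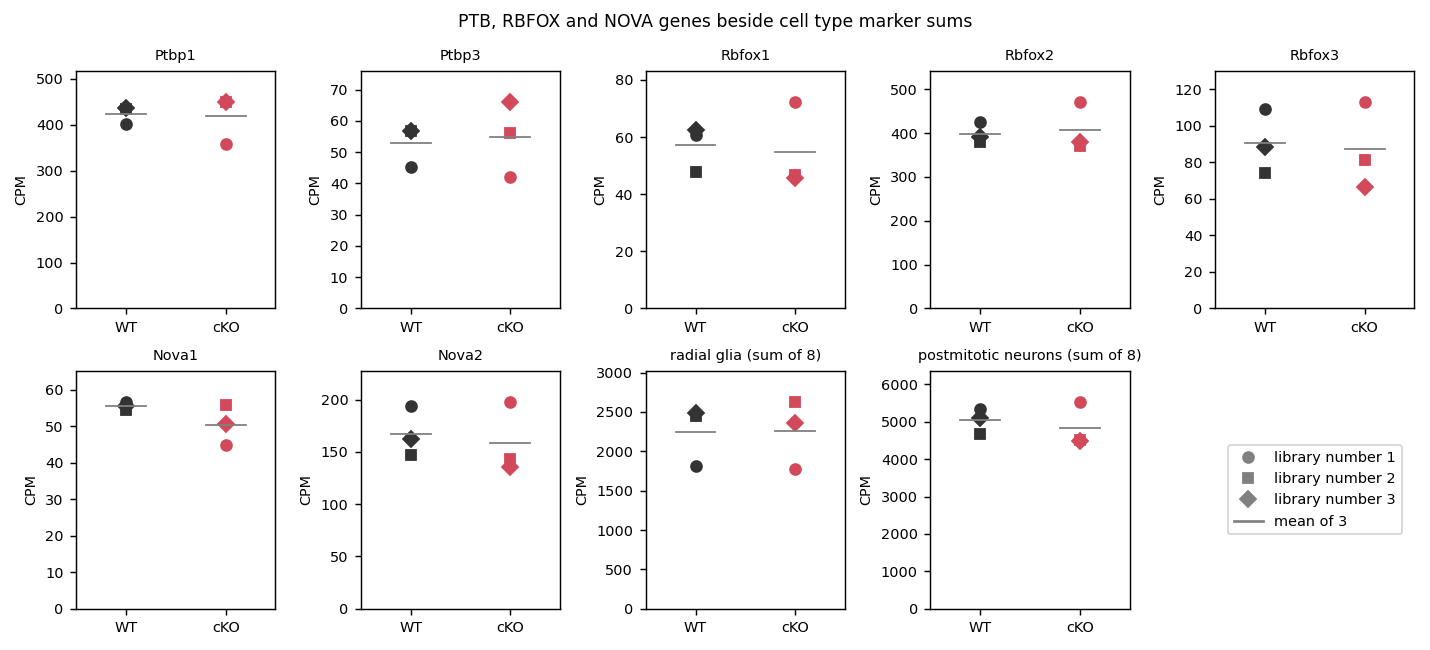
CPM per library of the PTB, RBFOX and NOVA genes and the summed CPM of 8 radial glia and 8 neuron markers, in WT and cKO, with the symbol giving the library number and the line the mean of 3. Circles (replicate 1) are lowest for Ptbp1, Ptbp3 and radial glia and highest for Rbfox2, Rbfox3, Nova2 and neurons in each genotype. Rbfox1 in WT and Nova1 in cKO do not have their highest value in replicate 1.

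The wider splicing machinery was read through 3 further lists, none of which had a gene at an adjusted p under 0.05. That held for all 13340 tested genes, of which 6774 had log2 fold changes above 0, with a median of 0.0019. At an unadjusted p under 0.05, 1.75% of all were higher in cKO and 1.81% lower. The counts of direction in the lists were not tested. Kinases of SR proteins and nuclear import receptors (9 tested genes, such as Srpk1 and Clk1) had 7 log2 fold changes above 0 and 2 below. Their median was 0.0077, with 0 genes at an unadjusted p under 0.05. Core spliceosome genes (32 tested) had 23 above 0 and 9 below, a median of 0.034, and 0 such genes. Other neural splicing regulators (19 tested) had 5 above 0 and 14 below, a median of -0.037, and 1 gene at an unadjusted p under 0.05, beside 1.81% of all tested genes in that direction.

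That gene was Elavl2, a neuronal protein that binds AU-rich and U-rich elements. It had 297, 279 and 292 CPM in WT and 267, 231 and 215 CPM in cKO. All cKO values were under the lowest WT value, as in 4.83% of all tested genes. Celf1 of the same list and Srpk1 of the kinase list had this order too. The log2 fold change of Elavl2 was -0.28 (SE 0.09, interval -0.50 to -0.07, adjusted p = 0.99995 in edgeR's test). Its paralogs Elavl3 and Elavl4 had log2 fold changes of -0.05 and -0.11 with intervals that held 0, as did Ptbp2, the neuronal counterpart of Ptbp1, at 0.02 (interval -0.16 to 0.20).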

How the data were processed

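RNA was extracted with Trizol from E13.5 cortex, made into mRNA libraries and sequenced on a DNBSEQ platform (3 WT and 3 cKO libraries, grouped by the sample titles). The submitters' processing notes name HISAT2 2.2.1, Bowtie2 2.4.5, RSEM 1.3.1 and the builds GRCm38 and mm10. The annotation and strand setting are not given in the sources used here, so members that overlap another listed gene (12 of 41) are uncertain. The authors deposited estimated counts per gene, not scaled for depth, of which 10.9% were not whole, including values of 6 members. TPM values deposited by the authors were used for levels and 1 alternative, and FPKM values deposited by the authors were not used, nor were 6 columns of group averages.

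Estimated counts were rounded and filtered with filterByExpr (minimum count 10, minimum total count 15), then fitted with edgeR 4.0.16 (R 4.3.3), TMM factors (0.987 to 1.03) and glmQLFTest, with genotype as the only term and Benjamini-Hochberg adjustment over 13340 genes. The SE was the log2 fold change divided by the square root of F, and intervals used the moderated degrees of freedom. CPM are TMM-normalised. Samples are described as biological replicates sequenced in 3 batches, and no source used here says which libraries, embryos or litters a batch or replicate number holds. Batch was therefore not a term of the fit, and SEs and p-values measure the spread between these samples, any batch difference included.

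Members, gene lists and motifs were chosen with earlier results of these data known. A further gene list is not reported here. Named genes were Ybx1, the 12 members with the lowest p, the PTB, RBFOX, NOVA and TRA2 genes, Srsf1, Hnrnpa2b1 and list genes at an unadjusted p under 0.05. Others are named with values as examples of their class or for their promoter, and Celf1, Elavl3, Elavl4 and Ptbp2 were added after their values were seen. Alternatives were RLE factors, no filter, a stricter filter (10 counts in each library), limma-voom (limma 3.58.1), limma on log2(TPM + 1), DESeq2 1.42.0, a replicate block, each library left out, and WT replicate 2 with cKO replicate 3 left out. Counts of intervals and of non-overlapping members were added after the data were seen.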

Additional observations from a re-analysis of the deposited data

How the results depend on the processing

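Under 14 alternatives, 0 members passed an adjusted p of 0.05, beside 0 to 4 of all genes, and the lowest adjusted p of a named member was 0.626. Over all genes in those fits, 1.77% to 8.17% had an unadjusted p under 0.05. Members at an unadjusted p under 0.05 numbered 0 throughout, except for 1 lower member without cKO replicate 1 (Rbfox1, beside 3.57% of all genes) and 1 without cKO replicate 2 (Nova1, beside 1.81%), a range of 0 to 1 over the fits that leave out a library. The median log2 fold change over members lay between -0.034 (without cKO replicate 2) and 0.039 (without cKO replicate 1), and between -0.0013 and 0.044 otherwise. Intervals within 1.5-fold numbered 37 (without WT replicate 2) to 39 with a library left out, and 39 or 40 otherwise.

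Members with every cKO library above every WT library numbered 1, then 2 with RLE factors (Hnrnpdl and Srsf11), 2 on the TPM scale (Hnrnpa2b1 and Srsf2), 8 without WT replicate 2 and cKO replicate 3, and 1 to 5 with a library left out (5 without WT replicate 1 or cKO replicate 3, 4 without cKO replicate 1, 3 without WT replicate 2). Fewer libraries make non-overlap more frequent: over all tested genes the share above was 4.21% with 6 libraries, 6.86% to 12.6% with a library left out and 14% with both out. Members below numbered 0, then 1 on the TPM scale (Nova1) and 0 to 4 with a library left out (4 without cKO replicate 2, 3 without cKO replicate 1), beside 6.89% to 12.5% of all tested genes. None of these counts is read as a result about the members.

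Of 322 named-gene values, 292 kept direction and side and 26 changed sign, in 11 genes, while 10 members kept direction throughout. Without WT replicate 2 and cKO replicate 3 the log2 fold changes that changed sign were 0.0062 for Hnrnpa1, -0.054 for Ptbp3, -0.0028 for Srsf12 and 0.046 for Tra2a, and the cause was not tested. In the same fit Srsf1 was at 0.091 and Tra2b at 0.107. With a library left out, log2 fold changes ran from -0.11 to 0.00032 for Hnrnpa1, -0.26 to 0.041 for Nova2, -0.069 to 0.095 for Ptbp1, -0.11 to 0.22 for Ptbp3, -0.30 to 0.061 for Rbfox1, -0.082 to 0.092 for Rbfox2, -0.28 to 0.10 for Rbfox3, -0.038 to 0.066 for Srsf1, -0.032 to 0.27 for Srsf12, -0.13 to 0.0057 for Tra2a and -0.065 to 0.10 for Tra2b. The adjusted p of Ybx1 ran from 5.459e-10 (DESeq2) to 0.9533 (without cKO replicate 2) and was under 0.05 in 4 alternatives.

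Deviations of same-numbered libraries correlated at 0.41, 0.31 and -0.02 over all tested genes (numbers 1, 2 and 3) and at 0.77, 0.56 and 0.29 over the members alone. Whether the number pairs samples cannot be decided from 3 pairs, so the block stayed an alternative. With the replicate block, 0 members passed at either level, Ybx1 passed (adjusted p = 0.0381 in edgeR's test), the members' median was 0.0020, and 1090 tested genes had an unadjusted p under 0.05 against 476 without it.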
